A study of Mus musculus with 10 samples.

Results

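G0s2, Cidea, Lpl and Ces3a are 4 genes that act on stored or circulating triglyceride, and they are described here in the livers of mice with more or less SREBP activity. They were taken as the probe sets that the platform annotation assigns to these symbols alone, 4 of the 8251 genes measured. The members were selected on their log2 differences between these same RNA pools. Their levels and differences are therefore a description with no test, and the standard errors show only the spread between arrays. Tests were kept for other genes of the pathway, in lists that were also chosen with earlier results of these data known.

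Liver RNA of male mice was hybridised to Affymetrix MG_U74Av2 arrays, which read each transcript with sets of short oligonucleotides. SREBPs are membrane-bound transcription factors of lipid synthesis, and SCAP is the escort protein they need to be activated. The Scap knockout pool came from mice of 10 to 12 weeks with genotype Scap-/-;MX1-Cre, fed Teklad chow. Cre was switched on by polyinosinic-polycytidylic acid, injected 4 times, and livers were taken 14 days after the last dose. MX1-Cre responds to interferon, so recombination need not be limited to hepatocytes. The chow-fed wild type pool had the same age, diet and injections. The human transgene products in TgSREBP-1a and TgSREBP-2 were the nuclear forms, active without SCAP. These pools and that of their wild type littermates came from mice aged 12 to 16 weeks, fed for 2 weeks with much protein and little carbohydrate (the high-protein diet), which the labels give as the means of raising transgene expression. The promoter of the transgenes is not given in the sources used here.

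RNA of 5 mice was combined into 1 pool per group, and each pool was hybridised to 2 arrays, so n = 2 arrays per group throughout and all comparisons are between pools, with no error between mice. Values are log2 signals, where a difference of 1 is 2-fold. Duplicates correlated at 0.9921 to 0.9978 over genes, and between 0 and 151 genes per pool were at least 1.5-fold apart between duplicates, the most in TgSREBP-1a. In bulk liver RNA, fewer cells of a type and less RNA per cell cannot be told apart. Alb was between 13.48 and 13.85 on all 10 arrays. Of 9 hepatocyte markers, limma called 4 in TgSREBP-1a against its matched wild type, Ttr (-1.37), Tdo2 (-0.72) and Apob (-0.64) lower and Tat (0.77) higher, and the list's mean log2 signal was 11.27 to 11.39 there and 11.47 to 11.58 over the other pools.

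Triglyceride in a liver cell is stored in droplets, whose coat proteins control their size and their access to lipases. Adipose triglyceride lipase, the product of Pnpla2, starts droplet breakdown. It is activated by the product of Abhd5 and inhibited by that of G0s2. Cidea belongs to a family of droplet proteins that promote droplet fusion and growth. Lpl, lipoprotein lipase, splits triglyceride of plasma lipoproteins at the capillary wall and is made mainly by fat, muscle and macrophages, with little from adult hepatocytes. Ces3a is a member of the carboxylesterases, ester-splitting enzymes of the endoplasmic reticulum, some of which split triglyceride.

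The promoter of G0s2 is shown because G0s2 was far below the matched wild type in both transgenic pools. Of the members, only G0s2 had its promoter taken from the RefSeq promoter table used (build GRCm38.p6). The selection left out entries on a chromosome other than that of G0s2, and promoters of Cidea, Lpl and Ces3a were not searched. The sequence runs from 250 bases before to 50 after the start site, at chr1:193273139-193273438 on the minus strand. Capitals mark the letters CACCCCAC, the core of the classical sterol regulatory element, searched on both strands.

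G0s2 promoter: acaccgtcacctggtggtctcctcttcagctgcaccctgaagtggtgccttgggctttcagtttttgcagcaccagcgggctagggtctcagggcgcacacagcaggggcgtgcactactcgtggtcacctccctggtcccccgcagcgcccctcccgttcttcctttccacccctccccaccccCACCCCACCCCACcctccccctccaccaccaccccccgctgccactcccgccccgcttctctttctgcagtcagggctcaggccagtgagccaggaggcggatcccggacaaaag

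The core was found in 2 overlapping copies on the strand of the gene, the first bases at -65 and -60 from the start site, inside a longer run rich in C. The same letters occur in 942 of 32851 promoters of this length, or 2.87%. The E-box CACGTG, searched on both strands and present in 7.15% of the promoters, was not among these letters. A match describes the letters and is not evidence of binding.

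G0s2, the lipase inhibitor, was highest in the wild type pool fed high protein, at 9.67 and 9.66. In TgSREBP-1a it stood at 6.52 and 6.83, in TgSREBP-2 at 7.47 and 7.53, in chow-fed wild type at 7.31 and 7.31, and in Scap knockout at 7.2 and 6.93. A single pool was thus set apart from the other four, whose 8 arrays lay within 1.01 log2 of each other. Against the wild type of the same diet the log2 difference was -2.99 ± 0.12 in TgSREBP-1a, or 7.93-fold lower, and -2.16 ± 0.12 in TgSREBP-2, or 4.47-fold lower. TgSREBP-1a lay below TgSREBP-2 by a further -0.83 ± 0.12.

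The wild type pools themselves were far apart in G0s2. The one fed high protein exceeded the chow-fed one by 2.36 ± 0.12, or 5.12-fold, and the transgenic pools stood near the chow level, TgSREBP-2 slightly above it and TgSREBP-1a below. Diet, age and injections all differ between the wild type pools and cannot be told apart. In Scap knockout G0s2 was -0.24 ± 0.12 from its own wild type, and the arrays of these pools did not overlap. In the order of the 5 pools, from the wild type fed high protein through TgSREBP-2, chow-fed wild type and Scap knockout to TgSREBP-1a, no neighbours overlapped, but the last gaps were 0.19, 0.24 and 0.39 against a largest gap between duplicates of 0.31.

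Cidea, the droplet protein, was high in TgSREBP-1a alone, at 7.45 and 7.67. The matched wild type pool gave 5.44 and 5.61, TgSREBP-2 gave 5.36 and 5.7, chow-fed wild type 5.64 and 5.54, and Scap knockout 5.69 and 5.59. The TgSREBP-1a arrays lay above all others, and each of the other four pools overlapped the next in order. The difference from the matched wild type was 2.03 ± 0.12 in TgSREBP-1a, or 4.09-fold, against 0.01 ± 0.12 in TgSREBP-2 and 0.04 ± 0.12 in Scap knockout. The contrast between the transgenic pools was also 2.03 ± 0.12. Detection calls were not used here, so whether Cidea was detected in the low pools is not known.

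Lpl, the lipoprotein lipase, was also high in TgSREBP-1a alone. It stood at 8.16 and 7.52 in TgSREBP-1a, at 5.72 and 5.57 in the matched wild type, at 5.92 and 5.72 in TgSREBP-2, at 5.96 and 6.02 in chow-fed wild type and at 5.74 and 5.75 in Scap knockout. The TgSREBP-1a arrays were again above all others but differed from each other by 0.64, the widest gap between duplicates of any member. The difference was 2.19 ± 0.17 in TgSREBP-1a, or 4.57-fold, and 0.17 ± 0.17 in TgSREBP-2. In Scap knockout it was -0.24 ± 0.17. Below TgSREBP-1a came chow-fed wild type, TgSREBP-2, Scap knockout and the wild type fed high protein, with gaps of 1.85, 0.17, 0.07 and 0.1. Of these neighbours only TgSREBP-2 and Scap knockout overlapped, but the gaps after the first were below the largest gap between duplicates, 0.64.

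Lpl was the only member with another probe set, and its values bore on the size of the difference. The dimmer set read 6.5 and 5.77 in TgSREBP-1a and 4.63 and 4.69 in the matched wild type, a difference of 1.47 ± 0.19 in place of 2.19. In TgSREBP-2 it gave -0.11 ± 0.19, and in Scap knockout -0.03 ± 0.19. TgSREBP-2 was the lowest pool on this set, at 4.5 and 4.6, so the order of the low pools differed. Both sets thus placed TgSREBP-1a apart, while the difference in TgSREBP-2 had another sign on each.

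Ces3a, the carboxylesterase, had the widest range of the 4 members, 3.85 log2 or 14.4-fold between the highest and lowest pool. It read 8.25 and 7.88 in TgSREBP-1a, 11.64 and 11.53 in the matched wild type, 10.99 and 10.85 in TgSREBP-2, 11.95 and 11.88 in chow-fed wild type, and 11.82 and 11.93 in Scap knockout. TgSREBP-1a was lowest on both arrays, TgSREBP-2 came next without overlap, and the Scap knockout arrays overlapped those of their wild type. Against the matched wild type the difference was -3.52 ± 0.12 in TgSREBP-1a, or 11.5-fold lower, and -0.67 ± 0.12 in TgSREBP-2, or 1.59-fold lower. Scap knockout stood at -0.04 ± 0.12, and the wild type fed high protein was -0.33 ± 0.12 from that fed chow. From the top, the order was chow-fed wild type, Scap knockout, the other wild type, TgSREBP-2 and TgSREBP-1a, with gaps of 0.04, 0.29, 0.67 and 2.85, and only the first of these neighbours overlapped. Ces3b, its close relative, was not analysed here, and whether this probe set also reads other carboxylesterase transcripts is not known.

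**Figure D1:**
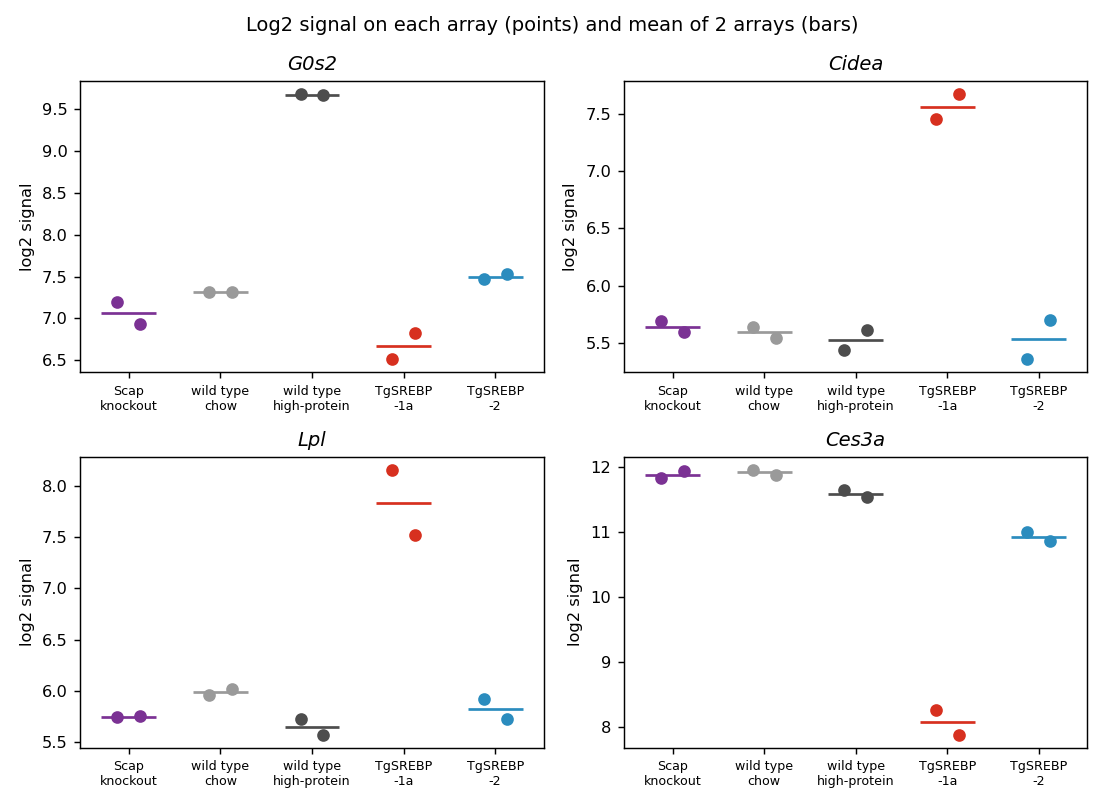
Log2 signal (vertical axis) of G0s2, Cidea, Lpl and Ces3a in the 5 RNA pools (horizontal axis); each point is 1 array and each bar the mean of 2 arrays. Cidea and Lpl stand out in TgSREBP-1a alone, Ces3a is lowest there, and G0s2 is high only in the wild type fed high protein.

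All 4 members had arrays of TgSREBP-1a outside those of the matched wild type and at least 1.5-fold away, 2 above and 2 below. Over all genes, 7.37% were called in that comparison, 4.78% higher and 2.59% lower, where called means an adjusted p under 0.05 and at least a 1.5-fold difference. The shares of called genes here and below rest on another criterion than the one used for the members. The share of all genes that met the members' criterion was not counted, nor the share whose arrays did not overlap between other pools. Nothing is read from the members' count, because the members were chosen with it known. In TgSREBP-2, where 2.57% of genes were called (2.18% higher, 0.388% lower), G0s2 and Ces3a were at least 1.5-fold lower while Cidea and Lpl were within 0.17 of the wild type. In Scap knockout, where 1.66% were called (0.739% higher, 0.921% lower), the largest difference of any member was 1.18-fold. Between the transgenic pools 2.24% of genes were called higher in TgSREBP-1a and 2.95% lower, and all 4 members were at least 1.5-fold apart. Between the wild type pools 1.28% were higher and 4.34% lower on the high-protein diet, where G0s2 alone of the members was at least 1.5-fold apart. The 3 comparisons within the high-protein set share pools, so their values are not independent of each other.

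**Figure D2:**
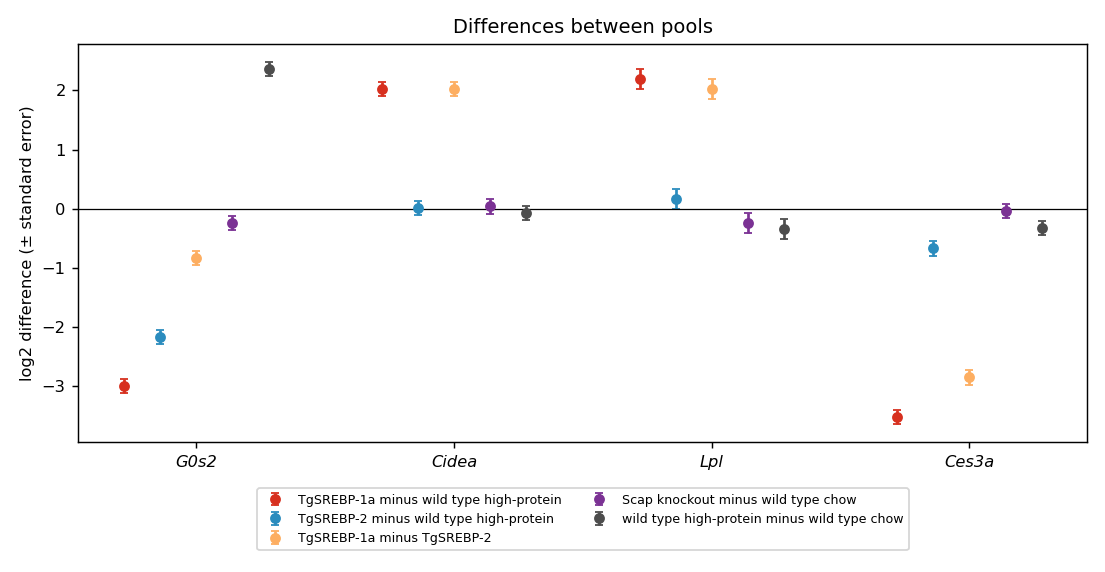
Log2 difference between pools (vertical axis) for the 4 genes (horizontal axis), in 5 comparisons shown by colour; bars are ± 1 standard error of the fit with 2 arrays per group. All 4 Scap knockout values lie between -0.24 and 0.04, against -3.52 to 2.19 for TgSREBP-1a.

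The other genes that act on the same steps are given by role, starting with the lipolysis that G0s2 restrains. Of 72 genes in 5 pathway lists, 39 were measured, and the 4 members are not among them. Abhd5, the activator of the lipase that G0s2 inhibits, read 8.57 and 8.39 in TgSREBP-1a against 6.32 and 6.33 in the matched wild type. It rose by 2.16 ± 0.09, or 4.46-fold (adjusted p = 9.82e-08, limma with Benjamini-Hochberg adjustment over 8251 genes). In TgSREBP-2 it was at 0.05 ± 0.09 (adjusted p = 0.828 in limma), and the transgenic pools differed by 2.11 ± 0.09 (adjusted p = 1.61e-07 in limma). Pnpla2, the lipase itself, was at 0.28 ± 0.09 in TgSREBP-1a, short of the fold threshold and of the adjusted p (0.0515 in limma).

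Abhd5 was the only 1 of 6 measured genes of intracellular lipolysis called in TgSREBP-1a, where 5 of the 6 had an unadjusted p under 0.05. The hormone-sensitive lipase Lipe was at -0.23 ± 0.10 and monoglyceride lipase Mgll at 0 ± 0.11, neither of them called. In TgSREBP-2, limma called 0 of the 6, and 0 had an unadjusted p under 0.05. In Scap knockout it also called 0 of the 6, where Lipe, at -0.29 ± 0.10, alone had an unadjusted p under 0.05. The median of the list was 0.14 for TgSREBP-1a beside -0.03 over all genes, 0.07 for TgSREBP-2 beside -0.02, and -0.11 for the Scap knockout beside 0.

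No measured droplet coat gene was called against its matched wild type in limma. For TgSREBP-1a this was 0 of 8 members, with 4 at an unadjusted p under 0.05. The TgSREBP-2 and Scap knockout comparisons each gave 0 as well, with 2 at an unadjusted p under 0.05. Plin2, the main droplet coat protein of hepatocytes, read 12.33 and 12.26 in TgSREBP-1a and 12.22 and 12.23 in the matched wild type, a difference of 0.07 ± 0.07. It was higher on the high-protein diet than on chow in wild type pools by 0.80 ± 0.07 (adjusted p = 8.25e-05 in limma), the same direction as G0s2. Of the relatives of Cidea, Cideb was at -0.04 ± 0.08 in TgSREBP-1a. Cidec was at 0.48 ± 0.10, short of 1.5-fold, and was higher in TgSREBP-1a than in TgSREBP-2 by 0.73 ± 0.10 (adjusted p = 0.000655 in limma), the only coat gene called there, at signals of 4.35 to 5.17 where detection is not known.

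**Figure D3:**
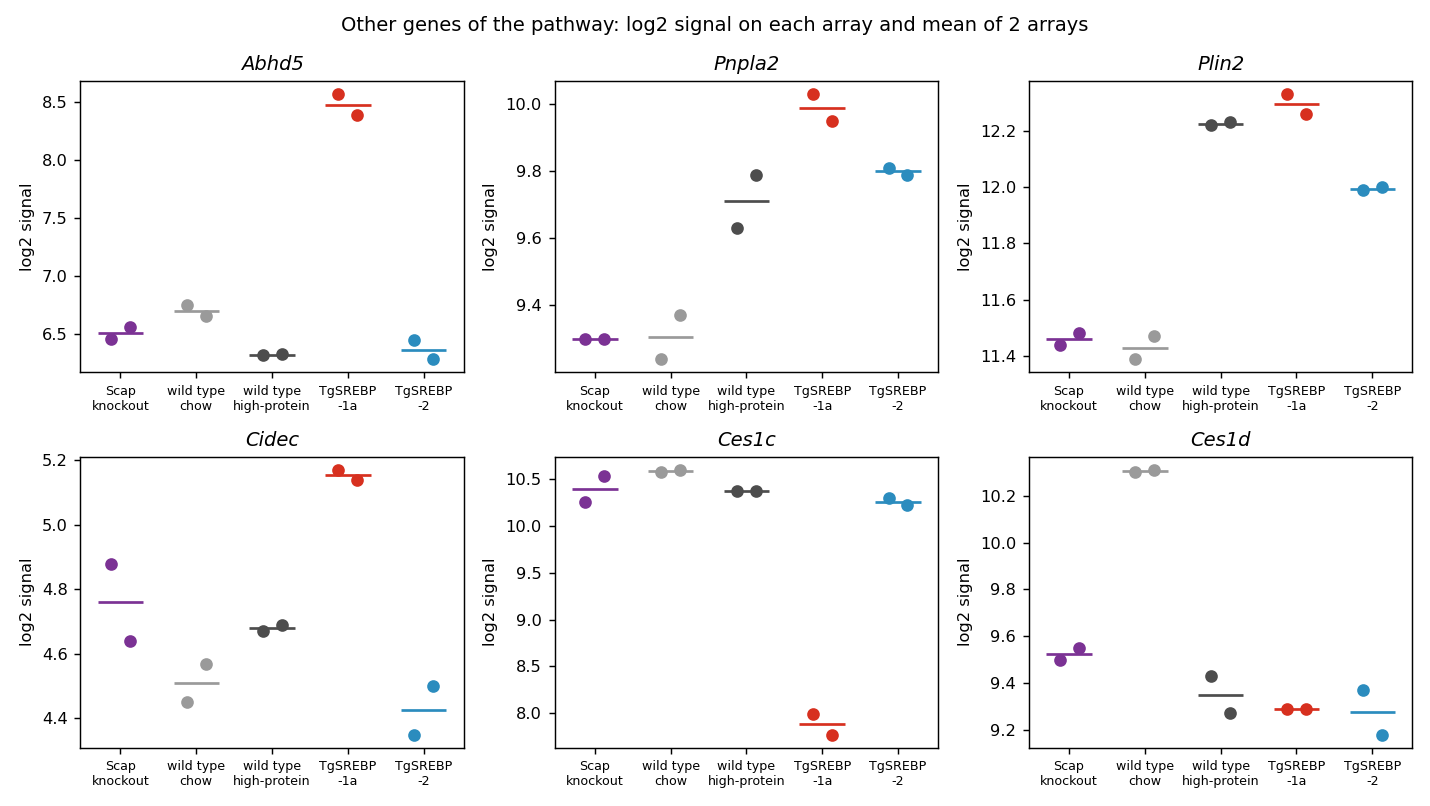
Log2 signal (vertical axis) of Abhd5, Pnpla2, Plin2, Cidec, Ces1c and Ces1d in the 5 pools (horizontal axis); points are arrays and bars the mean of 2 arrays. Abhd5 is high and Ces1c low in TgSREBP-1a only, while Ces1d is high only in chow-fed wild type.

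Ces3a was not the only carboxylesterase that was lower in TgSREBP-1a. Of 6 measured genes of carboxylesterases and microsomal lipases 2 were called lower and 0 higher, and 4 had an unadjusted p under 0.05. Among these 4, Ces1g went the other way, at 0.44 ± 0.11 (adjusted p = 0.0154 in limma), short of 1.5-fold. Ces1c, a carboxylesterase secreted into plasma, read 7.99 and 7.77 against 10.37 and 10.38 in the matched wild type and fell by 2.50 ± 0.11, or 5.66-fold (adjusted p = 1.02e-07 in limma). Aadac, an esterase of the endoplasmic reticulum, was at -0.65 ± 0.19 (adjusted p = 0.0455 in limma), a call lost when the first wild type array (-0.47) or the second TgSREBP-1a array (-0.36) was left out, or when only these pools were fitted (adjusted p = 0.11 in limma). In TgSREBP-2 limma called 0 of the 6, and 0 had an unadjusted p under 0.05, with Ces1c at -0.12 ± 0.11.

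Ces1d, the triacylglycerol hydrolase of the endoplasmic reticulum, had another pattern than Ces3a. It was at -0.06 ± 0.09 in TgSREBP-1a and -0.07 ± 0.09 in TgSREBP-2. In Scap knockout it read 9.5 and 9.55 against 10.3 and 10.31 in chow-fed wild type and fell by 0.78 ± 0.09 (log2 difference -0.78, adjusted p = 0.000687 in limma), the only 1 of the 6 called there. Between the wild type pools it was lower on high protein than on chow (-0.96 ± 0.09), as was Ces1g, another liver carboxylesterase (-1.43 ± 0.11; adjusted p = 8.36e-05 and 1.53e-05 in limma). The _i_at and _f_at suffixes of both probe sets of Ces1d mark sets that can share probes with related genes, so these values may hold other family members.

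Among the other plasma lipases and the regulators of Lpl, 1 of 10 measured genes was called higher and 1 lower in TgSREBP-1a. There 7 of the 10 had an unadjusted p under 0.05. Apoc2, the cofactor that lipoprotein lipase needs, rose by 0.85 ± 0.09, or 1.80-fold (adjusted p = 8.75e-05 in limma). Angptl4, an inhibitor of lipoprotein lipase, fell by 0.64 ± 0.08 (adjusted p = 0.00029 in limma), under 1.5-fold with the first TgSREBP-1a array left out (-0.57). In TgSREBP-1a its 4 probe sets gave -0.84, -0.64, -0.06 and 0.1, and their mean was not called (-0.36). The sets at -0.84 and -0.64 carry the suffixes _s_at and _f_at, so they may also read related transcripts. The set at -0.06 has the plain suffix _at. Between the wild type pools Angptl4 was higher on high protein, by 0.88 ± 0.08 (adjusted p = 7.05e-05 in limma), or 0.57 as the mean of its probe sets, which misses 1.5-fold. In TgSREBP-1a the list's median was -0.30 beside -0.03 over all genes. In TgSREBP-2 limma called 0 of the 10, where 5 had an unadjusted p under 0.05, and in Scap knockout 0, where 2 did. Between the transgenic pools Apoa5, which promotes lipolysis by lipoprotein lipase, was lower in TgSREBP-1a (-0.81 ± 0.10, adjusted p = 0.000262 in limma). Lcat, which esterifies plasma cholesterol, was lower by -0.71 ± 0.18 (adjusted p = 0.0299 in limma), a call lost with the second TgSREBP-1a array (-0.51) or the first TgSREBP-2 array (-0.46) left out, with the mean of its probe sets (-0.33) or with only these pools fitted (adjusted p = 0.124 in limma).

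Enzymes that make triglyceride differed in both transgenic pools. Of 9 measured genes, 5 were called higher in TgSREBP-1a and 0 lower. Gpam, which makes the first glycerolipid intermediate, read 11.62 and 11.67 in TgSREBP-1a against 9.24 and 9.1 in the matched wild type, and rose by 2.47 ± 0.09, or 5.56-fold (adjusted p = 3.27e-08 in limma). Acsl5 and Acsl4, which activate fatty acids, rose by 2.09 ± 0.14 and 1.77 ± 0.28, and the phosphatidate phosphatases Lpin1 and Lpin2 by 1.26 ± 0.16 and 0.63 ± 0.13 (adjusted p of 2.99e-06, 0.00147, 0.000283 and 0.00789 in limma). The call of Lpin2 was lost with quantile normalization (0.57), as the mean of its probe sets (0.37) and with the first TgSREBP-1a array left out (0.44). In TgSREBP-2 4 were called higher and 0 lower. These were Acsl4 (1.41 ± 0.28), Gpam (0.88 ± 0.09), Acsl5 (0.86 ± 0.14) and Lpin2 (0.62 ± 0.13), with adjusted p of 0.0155, 0.000257, 0.00524 and 0.0228 in limma. A dimmer probe set of Acsl4 gave 0.59 ± 0.13 in TgSREBP-2 and 1.52 ± 0.13 in TgSREBP-1a. Between the transgenic pools the dimmer set gave 0.93 ± 0.13 in place of 0.36 ± 0.28. Gpam, Acsl5 and Lpin1 were higher in TgSREBP-1a than in TgSREBP-2, by 1.6 ± 0.09, 1.22 ± 0.14 and 1 ± 0.16 (adjusted p of 1.02e-06, 0.000201 and 0.00188 in limma).

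Of the TgSREBP-2 calls, that of Gpam held with each array left out (0.81 to 0.95), and the other three did not. With the second wild type array left out, the calls over all 39 genes numbered 2 in place of 4. They also numbered 2 with the first TgSREBP-2 array left out, one of them being Apoc2 (0.6, adjusted p of 0.027 in limma), which had missed 1.5-fold with all arrays (0.57). Acsl4 (1.19 and 1.21) and Lpin2 (0.58 and 0.47) lost their call in both cases, Acsl5 in the latter (0.74), and Lpin2 also without the first wild type array (adjusted p of 0.0774 in limma). Lpin2 further missed the call with quantile normalization (0.54), as the mean of its probe sets (0.31) and with only these pools fitted (adjusted p of 0.0502 in limma).

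Between the wild type pools Lpin1 and Lpin2 were higher on high protein, by 1.19 ± 0.16 and 1.11 ± 0.13, and Gpam was lower, at -0.74 ± 0.09 (adjusted p of 0.000818, 0.000366 and 0.000458 in limma). Quantile normalization put Gpam at -0.56, short of 1.5-fold. Lpin1 and Lpin2 thus differed between these wild type pools in the direction that G0s2 did, and Gpam in the other. Here too, diet, age and injections cannot be told apart.

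In Scap knockout 2 of the 9 were called lower and 0 higher. Acsl5 fell by 0.81 ± 0.14 and Gpam by 0.67 ± 0.09 (adjusted p of 0.01 and 0.00186 in limma). The call of Acsl5 was lost when any 1 of the 4 arrays was left out (adjusted p of 0.0638 to 0.102 in limma). Acsl4, at -0.97 ± 0.28, was not called (adjusted p of 0.144 in limma), but passed with the replicate number as a block (0.000314) or with only these pools fitted (9.62e-05). The dimmer probe set of Acsl4 gave -0.55 ± 0.13. Over all 5 lists, limma called 10 of 39 genes (25.6%) for TgSREBP-1a, against 7.37% of all genes. It called 4 (10.3%) for TgSREBP-2, against 2.57%, and 3 (7.69%) for the Scap knockout, against 1.66%. The synthesis enzymes supplied 5, 4 and 2 of these. Between the transgenic pools 8 of 39 were called, against 5.19% of all genes, and between the wild type pools 7 of 39, against 5.62%. The lists were chosen with earlier results of these data known, so nothing is read from their shares exceeding those of all genes.

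**Figure D4:**
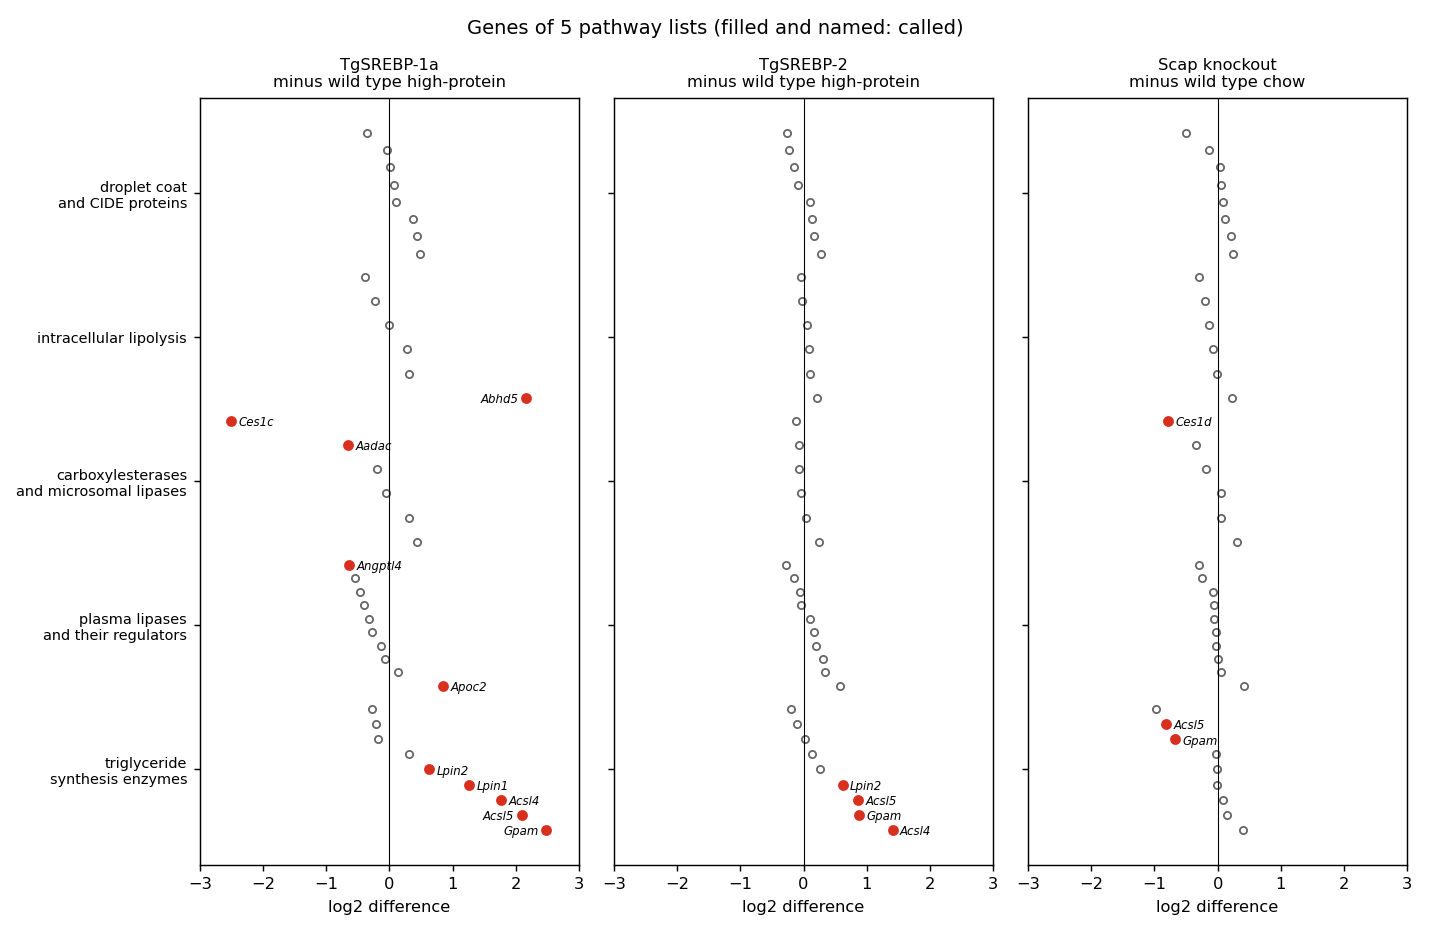
Log2 difference from the matched wild type (horizontal axis) of 39 genes in 5 pathway lists (vertical axis), for TgSREBP-1a, TgSREBP-2 and Scap knockout; each point is a gene, and filled, named points had an adjusted p under 0.05 and at least 1.5-fold. In TgSREBP-1a 10 points are filled, among them Abhd5 at 2.16 and Ces1c at -2.50, against 4 in TgSREBP-2 and 3 in Scap knockout.

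The members fell into 3 patterns over the 5 pools. Likeness was measured as the root mean square distance between group means after each gene was centred on its own mean, in log2. Cidea and Lpl were 0.11 apart, while every other pair of members was 1.38 to 2.25 apart. The nearest of all genes to Lpl was Abhd5 at 0.07, followed by Trak1, an adaptor of mitochondrial transport, at 0.09 and Ddit4, a stress-induced inhibitor of mTORC1, at 0.1. The nearest to Cidea were Trak1 at 0.07, Abhd5 at 0.11 and Lpl at 0.11. The median distance of all genes was 0.83 to Lpl and 0.81 to Cidea.

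Ces3a and G0s2 had no such close match by this distance. The distance is not scaled to a gene's range, which was wider for Ces3a (3.85) and G0s2 (2.99) than for Lpl (2.19) and Cidea (2.03). The nearest to Ces3a were Slc22a30, a transporter of the organic anion family, at 0.3, the carbonic anhydrase Car3 at 0.34 and Pigr, which carries immunoglobulin A into bile, at 0.36, with a median of 1.45. The nearest to G0s2 were Serpina3n, an acute phase serpin, at 0.52, Il1r1, the interleukin-1 receptor, at 0.59 and Slc25a47, a mitochondrial carrier of liver, at 0.62, with a median of 1.05. Serpina3n also peaked in the wild type fed high protein, with means of 11.9 there, 10.54 on chow, 10.02 in TgSREBP-1a and 10.93 in TgSREBP-2. The distances describe 5 pools, which share control arrays, and carry no test.

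**Figure D5:**
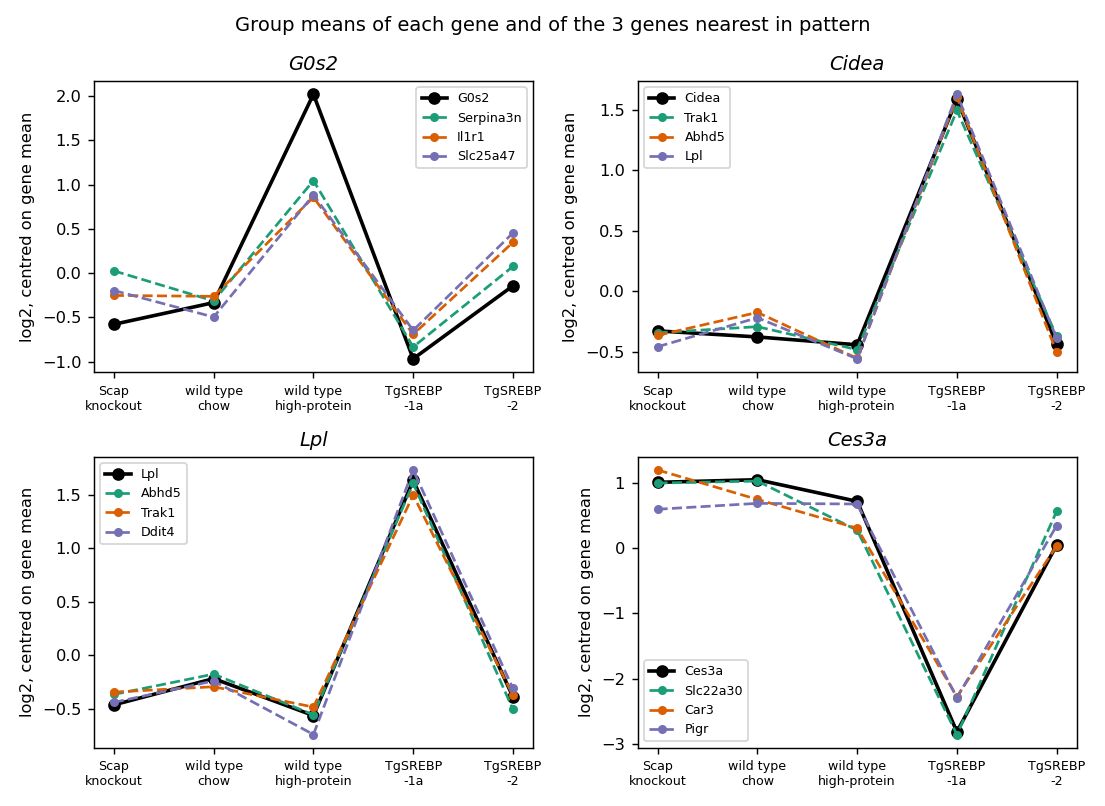
Group means in log2, centred on each gene's own mean (vertical axis), over the 5 pools (horizontal axis); the black line is the named gene and the dashed lines are the 3 genes at the smallest distance. Cidea, Lpl, Abhd5 and Trak1 trace nearly the same line, whereas the dashed lines around G0s2 peak lower than G0s2 itself.

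Markers of other cell types were measured beside the members. Of 10 macrophage markers 5 were called higher in TgSREBP-1a. The mean log2 signal of the list was 8.37 to 8.48 there and 7.71 to 7.74 in the matched wild type. It was 8.07 to 8.12 in TgSREBP-2, 8.32 to 8.43 in chow-fed wild type and 8.21 to 8.23 in Scap knockout. Of 7 adipocyte markers none was called higher in TgSREBP-1a and Car3 alone was called lower. The list's mean was 6.63 to 6.64 there against 7.08 to 7.1 in the matched wild type. Car3 stood at -2.57 ± 0.12 and the other adipocyte markers between -0.28 (Retn) and 0.24 (Fabp4). The lower mean thus rests mostly on Car3. Car3 read 10.13 to 10.27 in the matched wild type, far above Adipoq at 4.36 to 4.43. Whether the Car3 signal came from adipocytes was not tested. Of 7 endothelial markers 2 were called higher in TgSREBP-1a. These were the hyaluronan receptor Lyve1 (1.09 ± 0.17) and the cadherin Cdh5 (0.72 ± 0.12), with adjusted p of 0.00152 and 0.00245 in limma. The list's mean was 6.24 to 6.38 in TgSREBP-1a against 6.02 to 6.06 in the matched wild type. The other endothelial markers lay between -0.17 (Vwf) and 0.21 (Kdr), none of them called. Lyve1 read 5.28 to 5.5 in TgSREBP-1a and 4.0 to 4.6 in the matched wild type, where detection is not known. Adipoq, the adipocyte hormone adiponectin, was between 4.13 and 4.69 on all 10 arrays.

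Muscle and pancreas markers also moved. The mean of 9 muscle markers was 5.83 to 6 in TgSREBP-1a and 5.88 to 5.92 in chow-fed wild type, against 6.52 to 6.59 over the other three pools, with 3 of 9 called lower in TgSREBP-1a. All 7 measured exocrine pancreas markers were lower in TgSREBP-1a and in Scap knockout than in their wild types, with Prss2, a trypsinogen, at 5.64 and 5.66 against 11.22 and 11.19 in the first comparison. The median difference of the pancreas markers in Scap knockout was -2.04. The list's mean was 7.2 to 7.27 in TgSREBP-1a, 7.44 to 7.52 in Scap knockout and 11.01 to 11.14 in TgSREBP-2. The wild type pools also differed, at 9.66 to 9.72 on chow and 10.43 to 10.54 on high protein, with 6 of the 7 called higher on high protein. The part of these other cells in the differences of the 4 members was not tested.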

How the data were processed

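The authors deposited 1 table of log2 signals for 12488 probe sets on 10 arrays. RMA made these values, per the submitters' processing notes (its version is not given in the sources used here), although the design text speaks of Microarray Suite 5.0. They ran from 2.68 to 14.03, with array medians between 6.37 and 6.4, and nothing further was done to them. RMA shrinks differences of dim probe sets, and detection calls were not used here.

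Gene names came from the platform annotation, and RefSeq gave the current symbol of each gene ID (10817 of 10833 sets with 1 symbol matched). Left out were 66 control sets, 396 with several symbols and 1193 with none. For each gene the probe set brightest on average stood for it, which left 8251 genes. All 10 arrays were fitted together with limma 3.58.1 in R 4.3.3 (lmFit and eBayes, 1 coefficient per group, 5 residual degrees of freedom), in 5 contrasts with Benjamini-Hochberg adjustment over all genes. Errors after ± are moderated standard errors with n = 2 arrays per group. The fit was tested on simulated data. P-values measure the spread between hybridisations of pools.

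The members and the gene lists were chosen with earlier results of these data known. The rule named the 4 members, up to 4 called genes per list and contrast by size, 10 fixed pathway genes and the 3 genes nearest to each member. Other named genes are cell type markers, or Lpin2, Acsl4 and Apoc2 in comparisons where they were picked after their values were seen. Deviations of same-numbered arrays from their group means had correlations of 0.46, 0.61 and 0.60 within the high-protein set and of 0.30 within the Scap set, so the replicate number was taken to pair arrays within each set. It correlated at -0.12 to -0.48 between sets. Alternatives were a replicate block, 2 other normalizations, a filter on dim genes, the mean over probe sets, a fit on the compared groups, an intensity trend, a higher fold threshold and each array left out.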

Additional observations from a re-analysis of the deposited data

How the results depend on the processing

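With a fold threshold of 2 the calls among the 39 pathway genes fell to 6 in TgSREBP-1a, 1 in TgSREBP-2, 5 between the transgenic pools, 0 in Scap knockout and 3 between the wild type pools, by construction. With 1 array left out, where the lone array is assumed to vary like the other groups, the TgSREBP-2 calls ranged from 2 to 4. The replicate block gave 10, 4, 8, 4 and 7 calls in the same order and changed the call of none of the 65 pathway results named by rule. Its added call was Acsl4 in Scap knockout. The higher fold threshold was applied to the counts only and not to these 65 results. Of the 31 called among the 65, 22 kept call and direction under all the other alternatives, 9 lost the call under at least 1, and 0 reversed. For the members, the dimmer probe set of Lpl gave 1.47 in TgSREBP-1a and 1.58 between the transgenic pools. Quantile normalization gave -2.26 for G0s2 and -0.77 for Ces3a in TgSREBP-2, and 2.47 for G0s2 between the wild type pools, where centring on medians gave 2.34; the cause was not tested. Over all alternatives run, the TgSREBP-1a differences were -3.14 to -2.83 for G0s2, 1.92 to 2.14 for Cidea, 1.47 to 2.52 for Lpl and -3.71 to -3.33 for Ces3a. Dim signals, 2 arrays per pool and 1 pool per group limit what can be said of small differences.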
